A study of Mus musculus with 5 samples.

Results

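The 85 genes described here are the mouse genes that encode the proteins of the cytosolic ribosome. They are the protein-coding genes whose symbol starts with Rpl or Rps and a digit, together with Rpsa and Rplp0, Rplp1 and Rplp2. Kinase genes of the Rps6k family, Rps19bp1 and pseudogenes named with -ps were left out. The tables held 49861 gene symbols or unnamed IDs, so the 85 genes were a small part of all rows. Of these genes, 52 belong to the large and 33 to the small ribosomal subunit. A standard set of 77 genes was kept apart from 8 paralogs, which are extra copies of a standard gene (Rpl3l, Rpl7l1, Rpl10l, Rpl22l1, Rpl36al, Rpl39l, Rps27l and Rps27rt). Rpl10l was listed at 0 in every library, and the other 84 genes had a value in at least 1 library.

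The values came from regulatory T cells (Tregs), the CD4 T cells that carry the transcription factor Foxp3 and restrain immune responses, sorted from C57BL/6 mice. Their RNA was sequenced in 5 libraries, 1 for each group, and differences between libraries have no replicate check. All mice carried Foxp3Cre, the Cre recombinase driven by the Foxp3 gene. The first library, labelled Med23 KO, came from adipose tissue of 10-month mice with floxed Med23 alleles and Foxp3Cre, and its counterpart came from adipose tissue of 10-month Foxp3Cre mice. At 4 months there was a library from adipose tissue of obese Foxp3Cre mice, with HFD in its title, and one from adipose tissue of Foxp3Cre mice that is called lean here only because no label names obesity. The last library came from lymph nodes (LN) of 4-month Foxp3Cre mice. The labels give neither the sort gate nor the number of mice behind a library.

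Ribosomal proteins assemble with ribosomal RNA in the nucleolus into a small subunit, which reads the messenger RNA, and a large subunit, which joins amino acids. A ribosome holds the standard proteins in fixed amounts, and their messenger RNAs are among the most abundant of a cell. In mammals these messenger RNAs begin with a cytosine followed by a run of pyrimidines, the 5′ terminal oligopyrimidine (TOP) motif, through which the kinase mTOR and the protein LARP1 tune their translation. When a T cell is activated and grows, it makes more ribosomes.

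The TOP motif is the sequence feature that these genes are known for. The start sites below are picked examples of annotated starts with and without it. The windows are from RefSeq on build GRCm38.p6 and were matched by symbol, since the deposited tables hold no coordinates. RefSeq gave 77 start windows for 65 of the 85 genes. Each line below gives 10 bases before the annotated start and 20 bases from it, 5′ to 3′ on the coding strand, and capitals mark the run of at least 5 pyrimidines that begins with C at the start. Rpl15 lies at chr14:18270967-18270996 on the minus strand, Rpl35 at chr2:39005112-39005141 on the minus strand, Rplp2 at chr7:141447641-141447670 on the plus strand, Rps6 at chr4:86857348-86857377 on the minus strand and Rps18 at chr17:33955646-33955675 on the minus strand. The standard gene Rps27 lies at chr3:90213629-90213658 on the minus strand, its copy Rps27rt at chr9:114982720-114982749 on the minus strand and its paralog Rps27l at chr9:66946076-66946105 on the plus strand. Rpl22l1, the paralog of Rpl22, lies at chr3:28805498-28805527 on the plus strand.
Rpl15: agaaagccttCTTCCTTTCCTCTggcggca
Rpl35: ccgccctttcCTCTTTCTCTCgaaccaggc
Rplp2: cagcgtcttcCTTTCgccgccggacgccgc
Rps6: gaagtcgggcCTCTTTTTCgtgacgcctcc
Rps18: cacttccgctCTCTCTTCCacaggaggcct
Rps27: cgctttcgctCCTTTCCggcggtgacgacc
Rps27rt: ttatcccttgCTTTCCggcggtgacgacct
Rps27l: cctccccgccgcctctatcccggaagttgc
Rpl22l1: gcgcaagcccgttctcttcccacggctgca

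A start C with a run of at least 5 pyrimidines was present in 14 of the 77 windows (18.2%), against 2.51% of all 32851 RefSeq windows. The motif CTTTCC lay within 20 bases of the start on the coding strand in 12 of the 77 windows (15.6%), against 1.95% of all windows. The shorter motif CTTCC, searched on both strands, lay there in 29 of the 77 windows (37.7%), against 18% of all windows, and the motifs can overlap the pyrimidine run and each other. An annotated start can lie some bases away from the start used in these cells, so these matches describe the annotation only. Of the sequences printed, Rps27 and Rps27rt both carry the run, and Rps27l and Rpl22l1 have none at the annotated start. Most windows of standard genes have none either, those of Rpl22, the parent of Rpl22l1, among them.

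Values were counts rescaled to the same sum in each library (counts per 1000000, CPM). The listed values stood for 4595046 reads in the library labelled Med23 KO, 9650769 in 10-month Foxp3Cre, 7496496 in obese adipose, 8540594 in lean adipose and 9694474 in LN. Med23, the targeted gene and a subunit of the Mediator complex, had 15.4 CPM in the library labelled Med23 KO, 6.32 in 10-month Foxp3Cre, 33.3 in obese adipose, 46.8 in lean adipose and 6.40 in LN, so it was not low in the library labelled as its knockout. A count over the whole gene does not show whether floxed exons were lost, and every direction given for that library rests on its label. The 7 Treg genes checked (Foxp3, Il2ra, Ctla4, Ikzf2, Tnfrsf18, Cd3e and Cd4) summed to 7337, 7777, 6185, 5885 and 4678 CPM in the same order of libraries, with none at 0. Markers of other cells moved with the groups. The 9 macrophage genes summed to 105, 658, 4862, 887 and 7.01 CPM, with 4 at 0 in the library labelled Med23 KO and 8 at 0 in LN. The 4 haemoglobin genes summed to 8940, 1202, 1062, 584 and 0 CPM, the 6 stromal and mesothelial genes to 0, 48.9, 10.4, 948 and 8.56 CPM, and the 4 B cell genes to 12.4, 7.77, 25.7, 3.51 and 99.7 CPM. Xist had 602, 440, 3.60, 0 and 228 CPM, Ddx3y 0, 0, 562, 560 and 0 CPM, and Gapdh 548, 639, 10.7, 1.05 and 979 CPM, so both 4-month adipose libraries stood apart from the other 3. Lean and obese adipose against LN therefore cross this split, and tissue and the split cannot be told apart there. Some other signs of RNA quality also went with tissue. In the same order, Hspa1b had 36.1, 43.6, 578, 1908 and 0 CPM. Malat1 had 15357, 9670, 16107, 20459 and 5144 CPM, and Neat1 had 472, 488, 1404, 1016 and 80.0 CPM. Each of these was higher in every adipose library than in LN. Actb had 1332, 2394, 2124, 1452 and 4288 CPM, lower in every adipose library. Fos had 357, 632, 437, 199 and 440 CPM and followed neither order. The part of these differences in the results below was not tested.

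Ribosomal protein genes took a larger share of the reads in LN Tregs than in any adipose library. Their share of listed reads was 5.04% in the library labelled Med23 KO, 3.56% in 10-month Foxp3Cre, 4.01% in obese adipose, 4.47% in lean adipose and 10.05% in LN. The 95% exact Clopper-Pearson intervals of these shares, which cover counting error only, were 5.02 to 5.06%, 3.55 to 3.57%, 4.00 to 4.03%, 4.45 to 4.48% and 10.03 to 10.06%. The share was thus 2.82-fold lower than in LN in 10-month Foxp3Cre (interval 2.81 to 2.84), 2.50-fold lower in obese adipose (2.49 to 2.51) and 2.25-fold lower in lean adipose (2.24 to 2.26). These 3 comparisons share the LN library. Both subunits had this order against LN. Large subunit genes took 2.66%, 1.93%, 2.02%, 2.20% and 5.21% of reads, and small subunit genes took 2.38%, 1.63%, 2.0%, 2.27% and 4.83%. In bulk samples such as these, fewer cells of a type and less RNA per cell cannot be told apart.

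**Figure D1:**
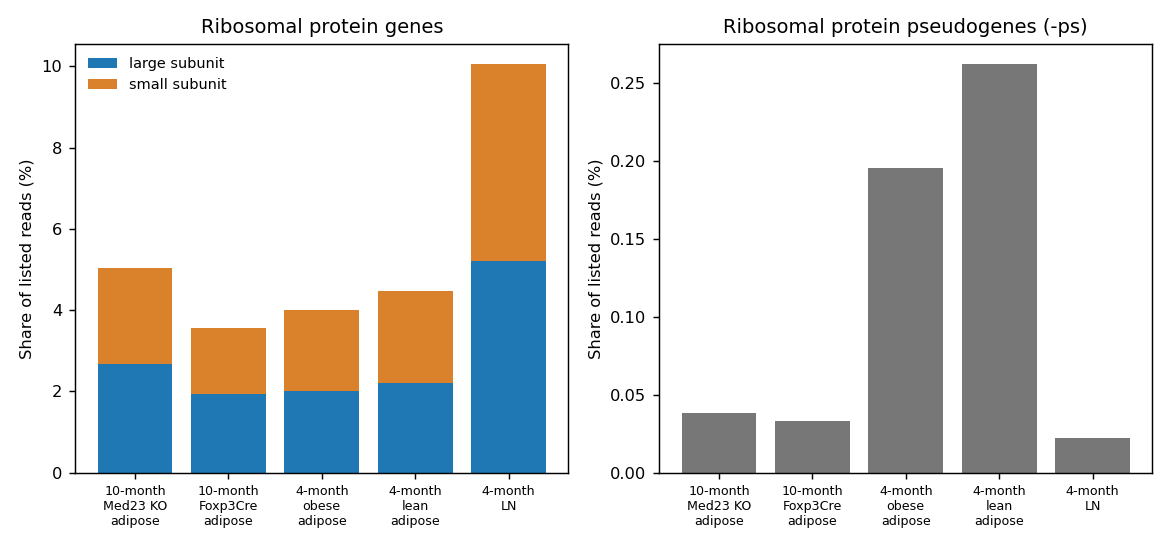
Share of listed reads (%) taken by ribosomal protein genes, split into large and small subunit (left), and by ribosomal protein pseudogenes named with -ps (right, another scale), in each of the 5 Treg libraries. LN has the tallest bar for the genes at 10.05%, and both 4-month adipose libraries have the tallest bars for the pseudogenes at 0.195% and 0.262%.

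Per kilobase of exon the picture was similar. Exon length here is the merged length of all annotated exons of a gene, which can exceed that of its transcripts. The median large subunit gene of the standard set had 244 CPM per kb in the library labelled Med23 KO, 173 in 10-month Foxp3Cre, 163 in obese adipose, 188 in lean adipose and 428 in LN. The median small subunit gene had 331, 235, 233, 264 and 633 CPM per kb in the same order. Small subunit genes therefore had the higher median level per kilobase of merged exons in all 5 libraries.

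Among the 82 genes listed above 0 in LN, 77 had their highest level of all libraries there, and 28 were at least 2-fold above all 4 adipose libraries, against 33.1% and 14.1% of all 10666 genes listed above 0 in LN. Rpl13a, Rpl24, Rps12 and Rps27rt were among the exceptions. Of the 78 genes at 100 CPM or more in LN, 76 were lower in all 4 adipose libraries and 28 at least 2-fold lower in all 4, against 55% and 17.8% of all 1919 genes at that level in LN. The lowest level lay in 10-month Foxp3Cre for 47 genes, in lean adipose for 16, in obese adipose for 14 and in the library labelled Med23 KO for 4, while Rpl10l, Rpl24, Rpl39l and Rpl3l were listed at 0 in several libraries.

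**Figure D2:**
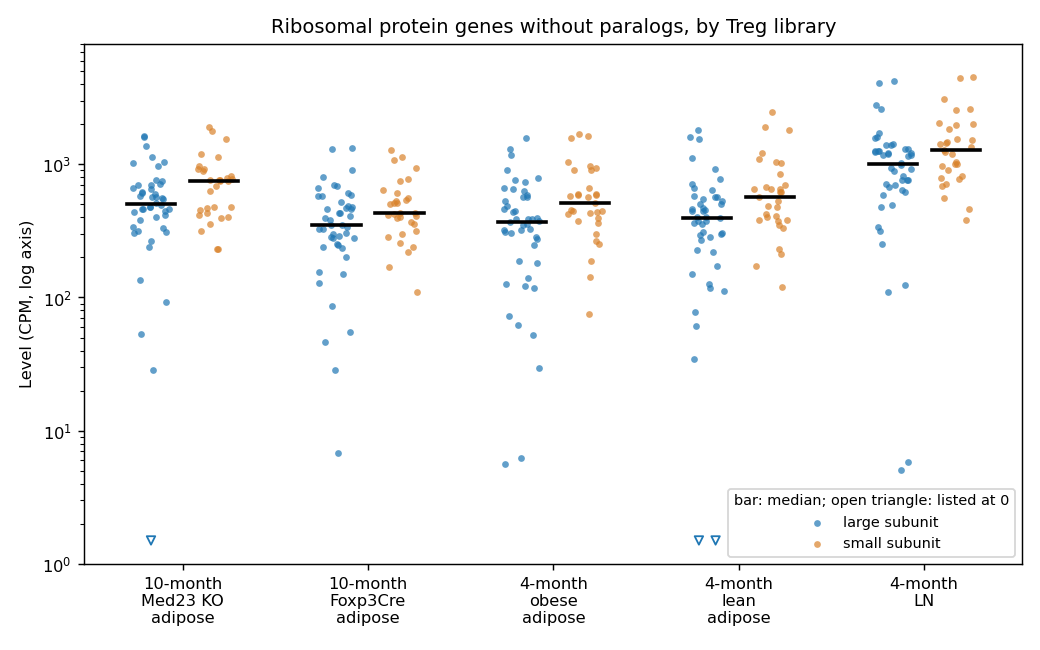
Level in CPM (log axis) of each of the 77 standard ribosomal protein genes in the 5 libraries, with 1 point per gene, a bar at the median of each subunit and open triangles for genes listed at 0. The LN points sit highest, and Rpl24 in the library labelled Med23 KO and Rpl13a and Rpl24 in lean adipose are the genes listed at 0.

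The genes with the most reads behaved as the whole set did. Rps19, a small subunit gene whose loss of 1 copy causes Diamond-Blackfan anaemia in humans, had 1549 CPM in the library labelled Med23 KO, 1270 in 10-month Foxp3Cre, 1697 in obese adipose, 2483 in lean adipose and 4425 in LN. Rps27, which encodes a zinc finger protein of the small subunit, had 1783, 1128, 1584, 1820 and 4558 CPM in the same order. Every adipose library lay below LN for both genes. Rps14, a small subunit gene linked in humans to the anaemia of the 5q- syndrome, had 1905 CPM in the library labelled Med23 KO, 1081 in 10-month Foxp3Cre, 1636 in obese adipose, 1913 in lean adipose and 3104 in LN. Its lowest level was that of 10-month Foxp3Cre. Rpl13, a large subunit gene, had 1631 CPM in the library labelled Med23 KO, 1335 in 10-month Foxp3Cre, 1181 in obese adipose, 1592 in lean adipose and 4222 in LN. Rpl41, which encodes a very short and basic peptide, had 1370, 912, 1304, 1547 and 2768 CPM. Each of these genes was thus lower in all 4 adipose libraries than in LN.

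The stalk genes encode the flexible arm of the large subunit that recruits elongation factors. Rplp0, the base of the stalk, had 1034 CPM in the library labelled Med23 KO, 665 in 10-month Foxp3Cre, 758 in obese adipose, 472 in lean adipose and 1716 in LN. Its partner Rplp1 had 765, 522, 783, 924 and 1562 CPM, and Rplp2 had 710, 338, 348, 446 and 1412 CPM. The 3 genes did not share 1 order among the adipose libraries, since lean adipose was lowest for Rplp0 and highest for Rplp1. Rpsa, a small subunit protein also known as the laminin receptor, had 819 CPM in the library labelled Med23 KO, 781 in 10-month Foxp3Cre, 598 in obese adipose, 400 in lean adipose and 1446 in LN. Its lean value was 3.62-fold lower than LN (3.49 to 3.76) and its 10-month Foxp3Cre value 1.85-fold lower (1.80 to 1.90).

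Lean adipose against LN Tregs asked how the Tregs of fat differ from those of lymphoid tissue. The 2 libraries also differ in Xist, Ddx3y and Gapdh. Of 84 genes with at least 1 CPM in either library, 60 were at least 2-fold lower in lean adipose and 3 at least 2-fold higher, against 30.3% (lower) and 39.5% (higher) of all 13540 measured genes. The median log2 ratio, taken as log2 of (CPM + 1) over (CPM + 1), was -1.16 for the ribosomal protein genes and 0.28 for all measured genes, and this pseudocount understates the ratio of low genes. A ratio below 0 was found for 81 of the 84, all 77 standard genes among them, against 45.5% of all measured genes, and a ratio above 0 for 3, against 54.5%. The ratios were also tightly grouped, with a standard deviation of 0.94 across the genes, against 2.44 across all measured genes. Among the 2019 genes with a mean of 100 CPM or more in this comparison, which are closer to these genes in level, 25.4% were at least 2-fold lower and 24.7% higher, with a median of -0.11 and a standard deviation of 1.93. In the authors' deposited table, 66 of the 83 ribosomal protein genes with an entry carried the authors' mark for a changed gene, 64 of them lower in lean adipose, against a marked share of 53.2% of 12235 genes. That mark compares 2 libraries and not conditions.

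The named extremes of this comparison were partly genes with low values or close copies. Rpl17, whose protein sits near the exit of the peptide tunnel, had 113 CPM in lean adipose and 1304 in LN, 11.6-fold lower (10.8 to 12.4). Rpl7a, a large subunit gene that also hosts small nucleolar RNAs in its introns, had 60.8 CPM in lean adipose and 592 in LN, 9.74-fold lower (8.90 to 10.7). Rpl7l1, a paralog of Rpl7, had 10.4 and 71.0 CPM, 6.81-fold lower (5.45 to 8.59). Rpl24, a large subunit gene mutated in the belly spot and tail mouse, was listed at 0 in lean adipose and had 5.78 CPM in LN. It rested on 56 reads in LN. At the other end, Rps27rt had 339 CPM in lean adipose and 74.3 in LN, 4.57-fold higher (4.21 to 4.96). Rps27l, a paralog that the tumour suppressor p53 activates, had 491 and 556 CPM, 1.13-fold lower (1.09 to 1.18). Rpl39l, a paralog known from male germ cells, and Rpl3l, known from muscle, had 11.2 and 2.34 CPM in lean adipose and were listed at 0 in LN.

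Obese adipose against LN Tregs gave 63 of 83 measured genes at least 2-fold lower and 2 at least 2-fold higher, against 21.2% and 43.8% of all 14713 measured genes. The median log2 ratio was -1.28 for the ribosomal protein genes and 0.60 for all measured genes, with standard deviations of 0.73 and 2.03. Below 0 lay 79 of the 83, against 38.4% of all measured genes, and above 0 lay 4, against 61.6%. Of 2057 genes with a mean of 100 CPM or more, 24.1% were at least 2-fold lower and 22.7% higher (median -0.08). In the authors' deposited table, 73 of 82 of these genes were marked, 72 of them lower in obese adipose, against 41.8% of 12649 genes. Rpl17 had 118 CPM in obese adipose and 1304 in LN, 11.0-fold lower (10.3 to 11.8). Rpl21, a large subunit gene, had 122 and 1175 CPM, 9.63-fold lower (9.0 to 10.3). Rpl7a had 72.7 and 592 CPM, 8.14-fold lower (7.46 to 8.90). Rps12, a small subunit gene, had 74.8 and 459 CPM, 6.13-fold lower (5.61 to 6.71). The highest ratios were those of Rps27rt, with 247 CPM in obese adipose and 74.3 in LN, 3.32-fold higher (3.05 to 3.63), and of Rpl39l, with 1.60 CPM against 0. Rpl13a, whose human protein also acts in an interferon-gamma-induced complex that silences messenger RNAs, had 5.60 CPM in obese adipose and 5.05 in LN, and Rpl24 had 6.27 and 5.78 CPM. The counting intervals of both folds hold 1, at 0.716 to 1.71 for Rpl13a and 0.72 to 1.63 for Rpl24.

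Tregs of 10-month Foxp3Cre adipose tissue against LN Tregs differ in age as well as tissue, and the 2 cannot be told apart. In this comparison 71 of 82 measured genes were at least 2-fold lower in 10-month Foxp3Cre and 1 at least 2-fold higher, against 29.8% and 34.3% of all 13187 measured genes. The median log2 ratio was -1.5 for the ribosomal protein genes and 0.10 for all measured genes, with standard deviations of 0.87 and 2.08. Below 0 lay 80 of the 82, against 48% of all measured genes, and above 0 lay 2, against 52%. Of 1971 genes with a mean of 100 CPM or more, 25.9% were at least 2-fold lower and 22.1% higher (median -0.08). Rps18, a small subunit gene, had 422 CPM in 10-month Foxp3Cre and 2546 in LN, 6.04-fold lower (5.84 to 6.24). Rpl35, near the exit of the peptide tunnel, had 55.2 and 251.6 CPM, 4.56-fold lower (4.15 to 5.01). Rpl23a, which helps to dock the signal recognition particle, had 28.6 and 124 CPM, 4.33-fold lower (3.80 to 4.95), and Rplp2 was 4.18-fold lower (4.02 to 4.34). These 4 genes were the lowest ratios of the comparison. The single gene at least 2-fold higher was Rpl13a, with 246 CPM in 10-month Foxp3Cre and 5.05 in LN, 48.7-fold higher (36.7 to 66.0). Its LN value rested on 49 reads, and Rpl13a was listed at 0 in lean adipose. Rpl3, a large subunit gene close to the catalytic centre, had 579 and 698 CPM, 1.21-fold lower (1.16 to 1.25). Rpl24 had 6.84 and 5.78 CPM.

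**Figure D3:**
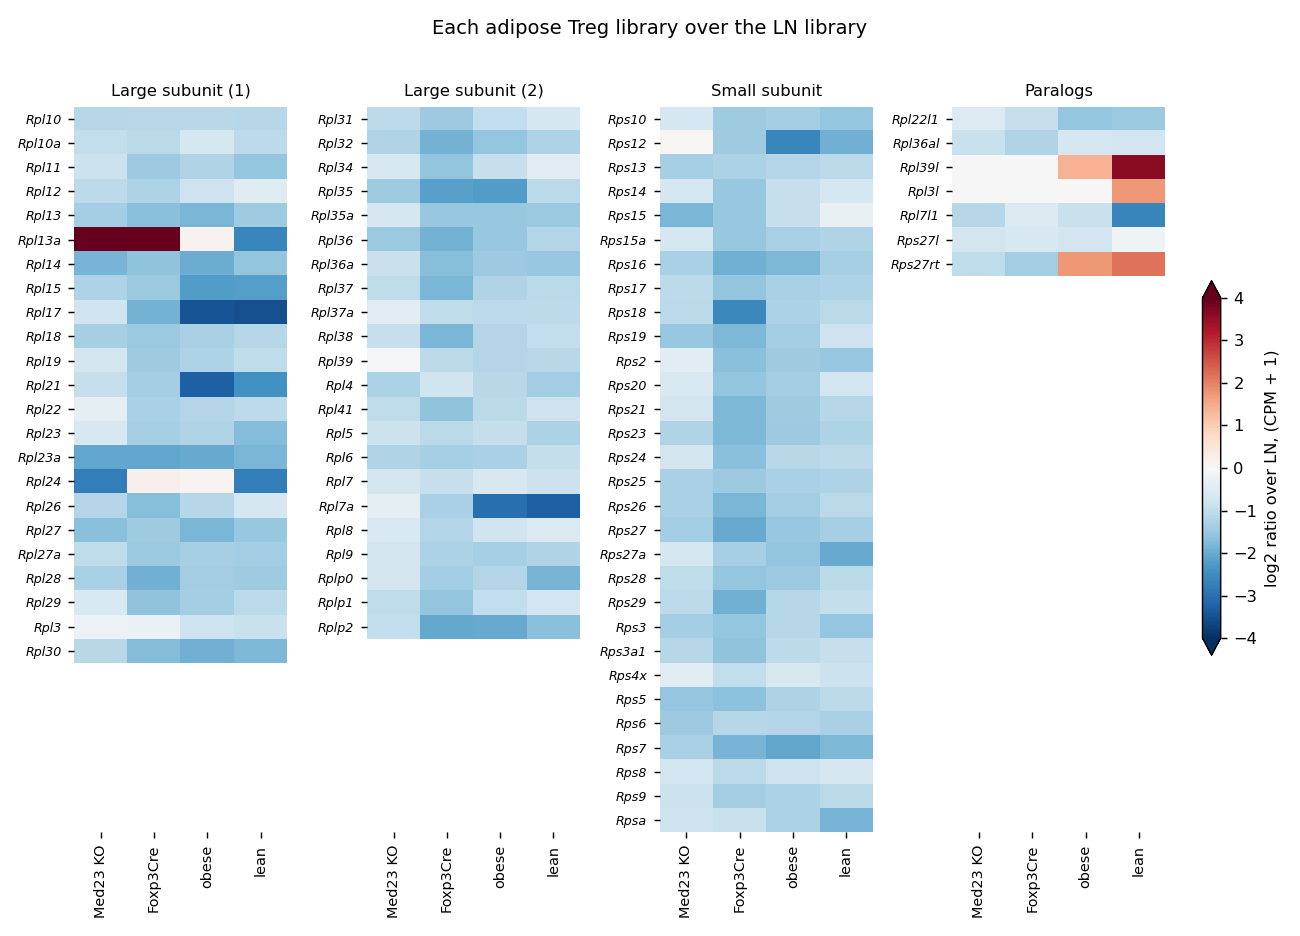
Heat map of the log2 ratio of (CPM + 1) of each adipose library over the LN library for standard large subunit genes (2 columns of genes), standard small subunit genes and 7 paralogs, with colours cut at -4 and 4. Most cells are blue, that is below LN, and the strongest exceptions are Rpl13a in both 10-month libraries and Rps27rt, Rpl39l and Rpl3l in 4-month adipose libraries.

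Obese against lean adipose Tregs addressed the effect of obesity at 4 months, and few ribosomal protein genes passed 2-fold. Among the 84 measured, 3 were at least 2-fold lower in obese adipose and 3 at least 2-fold higher, against 18.6% and 34% of all 14804 measured genes. Of 2070 genes with a mean of 100 CPM or more, 4.78% were lower and 6.14% higher by this measure, near the 3.57% of the ribosomal protein genes in each direction, and the standard deviations were also near, at 0.65 for the ribosomal protein genes and 0.71 for these genes. The median log2 ratio was -0.17 for the ribosomal protein genes and 0.20 for all measured genes, and 58 of the 84 lay below 0 and 26 above, against 43.8% and 56.2% of all measured genes. Their share of reads was 4.01% in obese and 4.47% in lean adipose, 1.11-fold lower (1.11 to 1.12). All 6 genes past 2-fold had under 60 CPM in at least 1 of the libraries. Rpl35 had 52.7 CPM in obese and 119 in lean adipose, 2.26-fold lower (2.01 to 2.54), and Rpl7l1 had 37.9 and 10.4 CPM, 3.64-fold higher (2.86 to 4.67). Rpl39l had 1.60 CPM in obese and 11.2 in lean adipose, 7.02-fold lower (3.84 to 14.1), from few reads. Rpl3l was listed at 0 in obese and had 2.34 CPM in lean adipose, while Rpl13a and Rpl24 had 5.60 and 6.27 CPM in obese and were listed at 0 in lean adipose. Among the well covered genes named by the same rule, Rpl21 had 122 CPM in obese and 219 in lean adipose, 1.80-fold lower (1.66 to 1.95). Rplp0 had 758 CPM in obese and 472 in lean adipose, 1.61-fold higher (1.54 to 1.67). Macrophage markers differed far more, with sums of 4862 CPM in obese and 887 CPM in lean adipose, and their part in these ratios was not tested.

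The library labelled Med23 KO against 10-month Foxp3Cre addressed what Med23 does in adipose Tregs. Most ribosomal protein genes were somewhat higher in the library labelled Med23 KO, and few passed 2-fold. Their share of reads was 5.04% in the library labelled Med23 KO, against 3.56% in 10-month Foxp3Cre, 1.42-fold higher (1.41 to 1.43). At least 2-fold higher were 7 of 82 measured genes, and at least 2-fold lower was 1, against 33.2% and 31.3% of all 13483 measured genes. Of 2064 genes with a mean of 100 CPM or more, 18.5% were at least 2-fold higher and 12.8% lower, and 57.4% lay above 0. The median log2 ratio was 0.55 for the ribosomal protein genes and 0.15 for all measured genes, with standard deviations of 0.56 and 2.19. A ratio above 0 was found for 71 of the 82 genes (86.6%), against 53.3% of all measured genes, and below 0 for 11, against 46.7%. On the authors' own scaling the median was 0.25 for these genes and -0.15 for all measured genes, and 2 genes were at least 2-fold higher. Relative to the median of all genes the median was 0.40. Of the 82 genes, 2 were marked in the authors' deposited table, both higher, against 40.8% of 12529 genes.

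The 3 highest ratios were those of small subunit genes. Rps18 had 1200.0 CPM in the library labelled Med23 KO, against 422 in 10-month Foxp3Cre, 2.85-fold higher (2.73 to 2.96). Rps12 had 474 and 169 CPM, 2.81-fold higher (2.63 to 3.00), and Rps2, a small subunit gene, had 758 and 314 CPM, 2.41-fold higher (2.30 to 2.53). Rpl17 had 752 and 349 CPM, 2.16-fold higher (2.06 to 2.26). The remaining genes at least 2-fold higher were Rplp2, Rpl39 and Rps21, of which Rpl39 and Rps21 were singled out after their values were seen. The only gene at least 2-fold lower was Rpl24, listed at 0 in the library labelled Med23 KO, against 6.84 CPM in 10-month Foxp3Cre. Further low ratios belonged to Rpl7l1, Rpl4 and Rps6. Rpl7l1 had 31.6 CPM in the library labelled Med23 KO, against 47.3 in 10-month Foxp3Cre, 1.5-fold lower (1.24 to 1.82). Rpl4, which lines the peptide tunnel, had 575 and 798 CPM, 1.39-fold lower (1.33 to 1.45). Rps6, the small subunit protein that S6 kinases phosphorylate, had 747 and 932 CPM, 1.25-fold lower (1.20 to 1.30). The haemoglobin sum was 8940 CPM in the library labelled Med23 KO, against 1202 CPM in 10-month Foxp3Cre, and the macrophage sum was 105 and 658 CPM. Their part in these ratios was not tested.

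**Figure D4:**
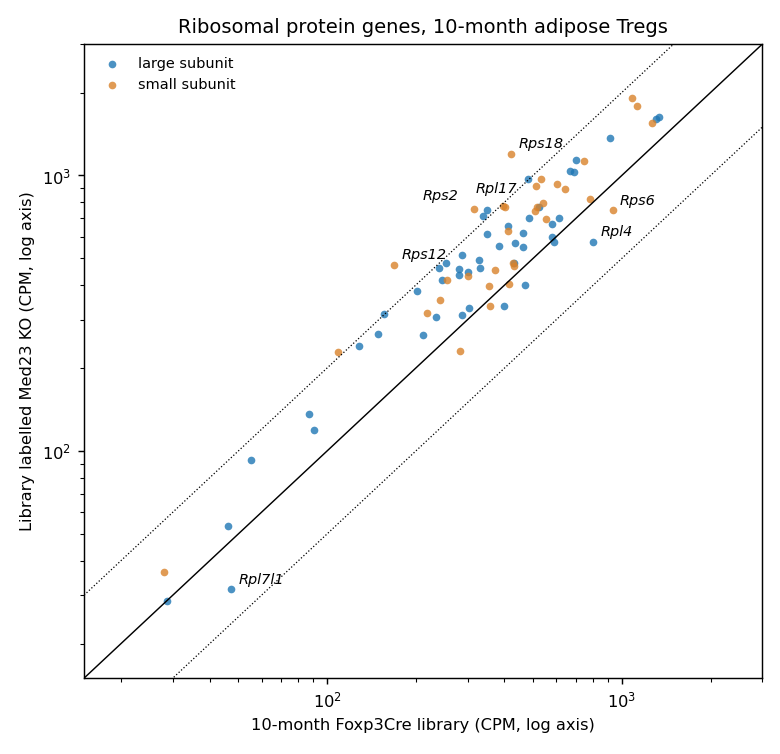
Level of each ribosomal protein gene in the library labelled Med23 KO (vertical, CPM, log axis) against the 10-month Foxp3Cre library (horizontal, CPM, log axis), with the line of equal values, dotted lines at 2-fold and the names of the genes with the highest and lowest ratios; genes at 0 in either library, Rpl24 among them, are not drawn. Most points lie above the line of equal values, and Rps18, Rps12, Rps2 and Rpl17 lie above the upper dotted line.

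The 10-month Foxp3Cre library against lean adipose compares ages. The values come from separate tables that the authors normalized apart, so only the rescaled CPM could be set side by side. These libraries also differ in Xist, Ddx3y and Gapdh, so age and that split cannot be told apart in this comparison. In 10-month Foxp3Cre, 8 of 84 measured genes were at least 2-fold lower and 7 at least 2-fold higher, against 32.7% and 28.5% of all 13879 measured genes. Of 1989 genes with a mean of 100 CPM or more, 10.5% were lower and 11.6% higher by this measure, near the 9.52% and 8.33% of the ribosomal protein genes, with a standard deviation of 1.38. The median log2 ratio was -0.33 for the ribosomal protein genes and -0.17 for all measured genes, with standard deviations of 1.29 and 2.15. Below 0 lay 58 of the 84 and above 0 lay 26, against 53.6% and 46.4% of all measured genes. Relative to the median of all genes the median was -0.16. Rps18 had 422 CPM in 10-month Foxp3Cre and 1219 in lean adipose, 2.89-fold lower (2.79 to 3.00). Rps27rt had 28.0 and 339 CPM, 12.1-fold lower (10.7 to 13.8). Rpl39l and Rpl3l were listed at 0 in 10-month Foxp3Cre, and had 11.2 and 2.34 CPM in lean adipose. In the other direction, Rpl7a had 240 CPM in 10-month Foxp3Cre and 60.8 in lean adipose, 3.95-fold higher (3.59 to 4.35), and Rpl7l1 had 47.3 and 10.4 CPM, 4.53-fold higher (3.61 to 5.76). Rpl13a had 246 CPM in 10-month Foxp3Cre and Rpl24 had 6.84, and both were listed at 0 in lean adipose.

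**Figure D5:**
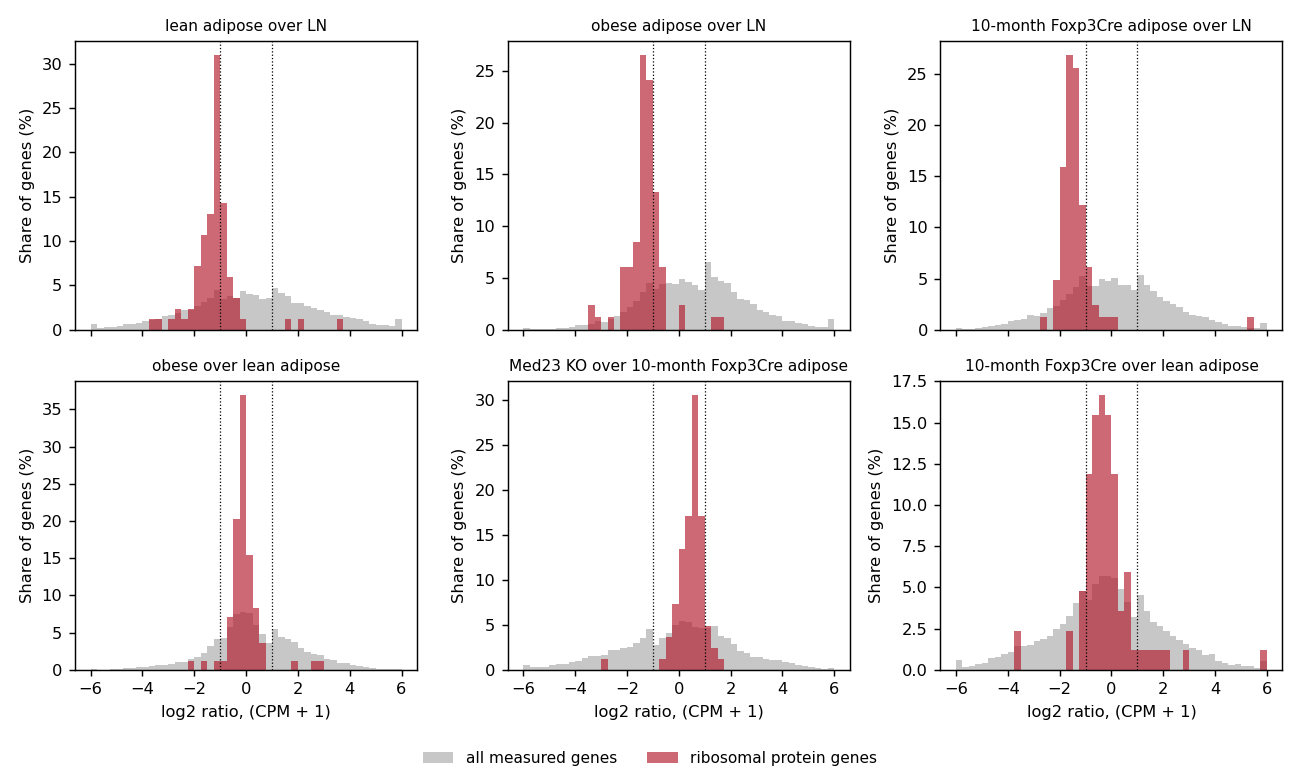
Distribution of log2 ratios of (CPM + 1) in the 6 comparisons for ribosomal protein genes (red) and all measured genes (grey), in percent of genes, with dotted lines at 2-fold and values beyond -6 and 6 gathered in the outer bins. The red distribution has medians of -1.16, -1.28 and -1.5 in the upper row and -0.17, 0.55 and -0.33 in the lower row.

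Some standard genes, singled out after their values were seen, stood higher at 10 months than at 4 months in adipose tissue. Rpl13a, Rpl17, Rpl21 and Rpl7a were at least 2-fold higher in both 10-month libraries than in both 4-month adipose libraries. For Rpl17 and Rpl21 this no longer held for 10-month Foxp3Cre once their named pseudogenes were added, as given below. For Rpl21 it then also failed for the library labelled Med23 KO against lean adipose. Rpl13a had 418 CPM in the library labelled Med23 KO, 246 in 10-month Foxp3Cre, 5.60 in obese adipose, 0 in lean adipose and 5.05 in LN. Rpl17 had 752, 349, 118, 113 and 1304 CPM in the same order. Rpl7a had 462, 239.8, 72.7, 60.8 and 592 CPM. LN, from 4-month mice, was therefore close to obese adipose for Rpl13a and above every adipose library for Rpl17 and Rpl7a. Both 4-month adipose libraries also differ from the other 3 in Xist, Ddx3y and Gapdh, so age and this split cannot be told apart here.

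Pseudogenes of these genes followed the same split. Ribosomal protein genes have many processed pseudogenes, copies of their messenger RNA inserted in the genome, and the tables held 280 symbols of this kind named with -ps. They took 0.0385% of reads in the library labelled Med23 KO, 0.0328% in 10-month Foxp3Cre, 0.195% in obese adipose, 0.262% in lean adipose and 0.0224% in LN. The share exceeded that of LN 11.7-fold in lean adipose (11.2 to 12.2), 8.70-fold in obese adipose (8.31 to 9.10) and 1.46-fold in 10-month Foxp3Cre (1.39 to 1.55). Of the 110 symbols listed above 0 in any library, 67 were higher in both 4-month adipose libraries than in each of the other 3 (60.9%), against 39.9% of 988 other processed pseudogenes listed in any library and 13% of all 17426 symbols or IDs listed in any library. All processed pseudogenes together took 0.511%, 0.285%, 0.952%, 1.17% and 0.165% of reads in the order of libraries above. The split was thus not limited to the symbols named with -ps. Both this total and the other processed pseudogenes can include copies of ribosomal protein genes under other names, such as Rpl6l. Whether the split reaches beyond such copies was not tested. The pseudogene Rps19-ps6 had 131 CPM in obese adipose and 269 in lean adipose and was listed at 0 in the other 3 libraries. Rpl21-ps15 had 133 and 117 CPM and Rpl23a-ps3 had 94.4 and 131 CPM in those 2 libraries, both also at 0 elsewhere. Rpl17-ps10 had 1.74 CPM in the library labelled Med23 KO, 0 in 10-month Foxp3Cre, 137 in obese adipose, 122 in lean adipose and 4.54 in LN.

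These pseudogenes are near copies, so how the authors' counting split reads between a gene and its copies bears on the values, and the sources used here do not give it. Of the 50-base words in the GENCODE M21 transcript, 67.6% of those of Rps19-ps6, 75.9% of those of Rpl17-ps10, 67.3% of those of Rpl21-ps15 and 88.1% of those of Rpl23a-ps3 also occur in the parent gene. For Rps6-ps4 and Rps16-ps2 the share was 100%. Adding each gene's named pseudogenes changed some values. Rpl17 with its pseudogenes had 757 CPM in the library labelled Med23 KO, 349 in 10-month Foxp3Cre, 277 in obese adipose, 261 in lean adipose and 1312 in LN. Rpl21 with its pseudogenes had 621, 462, 274, 359 and 1175 CPM. Both stayed below LN in every adipose library, by less than before in the 4-month libraries. For both, the 10-month Foxp3Cre value was then under 2-fold above each 4-month adipose value. For Rpl21 the value of the library labelled Med23 KO was also under 2-fold above that of lean adipose. Rpl23a with its pseudogenes had 51.6, 28.6, 128, 166 and 124 CPM, so both 4-month adipose libraries no longer lay below LN. Rps2 with its pseudogenes had 760 CPM in the library labelled Med23 KO, against 520 in 10-month Foxp3Cre, where Rps2-ps10 alone had 206 CPM. The higher Rps2 value of the library labelled Med23 KO was then under 2-fold. Low values of single genes with such copies are uncertain in the same way.

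Each paralog is set beside its parent. The standard deviation of the log2 ratios in lean adipose over LN was 2.23 across 7 paralogs and 0.58 across 77 standard genes. In 10-month Foxp3Cre over LN it was 0.35 across 5 paralogs and 0.89 across the standard genes. Rpl39l and Rpl3l, listed at 0 in LN, entered the first comparison through lean adipose alone and are absent from the second. The 0.89 includes Rpl13a at a log2 ratio of 5.35, so the spreads of the 2 comparisons do not rest on like sets. Rps27rt, a retrotransposed copy of Rps27, had 36.3 CPM in the library labelled Med23 KO, 28.0 in 10-month Foxp3Cre, 247 in obese adipose, 339 in lean adipose and 74.3 in LN. As a share of the reads of Rps27 and Rps27rt together it took 2.0%, 2.42%, 13.5%, 15.7% and 1.60% in the same order. It moved with the pseudogenes, and 296 of its 325 words of 50 bases (91.1%) also occur in Rps27, so its reads cannot be told from those of Rps27 without the counting rule. None of the other 7 paralogs shares a word of 50 bases with its parent. Rps27l took 15.9%, 24.1%, 17.5%, 21.3% and 10.9% of the reads of Rps27 and Rps27l, and its share was thus lowest in LN.

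Rpl22, a large subunit protein needed for the development of alpha-beta T cells, had 240.3 CPM in the library labelled Med23 KO, 129 in 10-month Foxp3Cre, 139.8 in obese adipose, 150.2 in lean adipose and 314 in LN. Its paralog Rpl22l1 had 119.5, 90.4, 58.2, 61.1 and 173 CPM and took 33.2%, 41.2%, 29.4%, 28.9% and 35.5% of the pair. Both genes were highest in LN. Rpl36a had 265 CPM in the library labelled Med23 KO, 149 in 10-month Foxp3Cre, 181 in obese adipose, 172 in lean adipose and 494 in LN. Its paralog Rpl36al had 265, 211, 301, 286 and 489 CPM and took 49.96%, 58.6%, 62.5%, 62.5% and 49.7% of the pair. The paralog's part of the pair was thus larger in 10-month Foxp3Cre, obese and lean adipose than in LN. Rpl39, the parent of Rpl39l, had 968, 482, 439.8, 461 and 993 CPM, and Rpl39l was under 12 CPM in every library.

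The genes that work with the ribosomal proteins did not all go the same way against LN. Fau and Rack1 encode ribosomal proteins outside the symbol rule, Fau as a fusion to a ubiquitin-like protein and Rack1 as a scaffold on the small subunit. Rack1 had 692 CPM in the library labelled Med23 KO, 465 in 10-month Foxp3Cre, 526 in obese adipose, 734 in lean adipose and 640.0 in LN. Fau had 392, 199, 413, 324 and 610.2 CPM. Neither was at least 2-fold lower than LN in lean or obese adipose, and of the pair Fau alone was in 10-month Foxp3Cre, 3.07-fold lower (2.91 to 3.23).

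Elongation factors and other messenger RNAs with a known TOP motif are 19 genes. Against LN, 9 were at least 2-fold lower and 1 higher in lean adipose (median log2 ratio -0.89), 7 lower and 2 higher in obese adipose (median -0.70), and 7 lower and 2 higher in 10-month Foxp3Cre (median -0.62). The shares of all measured genes lower and higher were 30.3% and 39.5% in lean adipose, 21.2% and 43.8% in obese adipose, and 29.8% and 34.3% in 10-month Foxp3Cre, and these also apply to the lists below. Eef1a1, which delivers transfer RNAs to the ribosome, had 1574 CPM in the library labelled Med23 KO, 2145 in 10-month Foxp3Cre, 1464 in obese adipose, 1180 in lean adipose and 2797 in LN, and was singled out after its values were seen. Eef2, which moves the ribosome along the messenger RNA, stood above LN in every adipose library, with 404, 273, 245, 338 and 97.2 CPM in the same order, 3.48-fold higher in lean adipose (3.23 to 3.74). Others of the list also stood above LN. Vim, an intermediate filament gene, was 3.01-fold higher in 10-month Foxp3Cre (2.91 to 3.12), and Pabpc4, a poly(A)-binding protein gene, was 2.60-fold higher in obese adipose (2.12 to 3.19). In the library labelled Med23 KO against 10-month Foxp3Cre, 4 of the 19 were at least 2-fold lower and 3 higher (median -0.14), against 31.3% and 33.2% of all measured genes. Pabpc4 had 79.9 CPM in the library labelled Med23 KO, against 16.2 in 10-month Foxp3Cre, 4.94-fold higher (4.09 to 6.00).

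Other groups stood closer to the median of all genes. Of the initiation factors, 11 of 31 were at least 2-fold lower and 8 higher in lean adipose than in LN (median log2 ratio -0.45), 7 lower and 7 higher of 31 in obese adipose (median -0.17), and 4 lower and 6 higher of 30 in 10-month Foxp3Cre (median 0.17). Eif3m, a subunit of the initiation factor that binds the small subunit, had 68.6 CPM in lean adipose and 484 in LN, 7.06-fold lower (6.48 to 7.70). Ribosome biogenesis genes had 15 of 47 lower and 17 higher in lean adipose (median 0.11), 10 of 48 lower and 8 higher in obese adipose (median -0.17) and 10 of 48 lower and 12 higher in 10-month Foxp3Cre (median 0.05). Eif6, which keeps the subunits apart until the large one is mature, had 39.1 CPM in lean adipose and 3.61 in LN, 10.8-fold higher (7.63 to 15.8). Of the TOR, MYC and LARP regulators, 6 of 20 were lower and 9 higher in lean adipose (median 0.76), 4 of 19 lower and 7 higher in obese adipose (median 0.40) and 3 of 19 lower and 6 higher in 10-month Foxp3Cre (median 0.27). Mxd1, an antagonist of MYC at shared binding sites, had 222 CPM in lean adipose and 17.4 in LN, 12.8-fold higher (10.9 to 15.02), and 177 CPM in 10-month Foxp3Cre, 10.2-fold higher (8.67 to 12.0). Host genes of small nucleolar RNAs had 3 of 10 lower and 1 higher in lean adipose (median -0.48), 3 lower and 0 higher in obese adipose (median -0.36) and 2 lower and 1 higher in 10-month Foxp3Cre (median -0.37).

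Proliferation genes, set beside these groups because dividing cells make ribosomes, had 7 of 15 at least 2-fold lower and 4 higher in lean adipose than in LN (median log2 ratio -0.36), 6 lower and 4 higher in obese adipose (median -0.58) and 2 lower and 4 higher in 10-month Foxp3Cre (median -0.15). Against lean adipose, 8 of 15 were at least 2-fold higher and 2 lower in obese adipose (median 1.12), against 34% and 18.6% of all measured genes. In 10-month Foxp3Cre 9 were higher and 2 lower than in lean adipose (median 1.48), against 28.5% and 32.7%. The ribosomal protein genes had medians of -0.17 and -0.33 in those comparisons. Of the 16 proliferation genes, 5 were listed at 0 in lean adipose, against 1 in obese adipose and 1 in 10-month Foxp3Cre. Their sums were 566 CPM in lean adipose, 712 in obese adipose and 1197 in 10-month Foxp3Cre. In the library labelled Med23 KO against 10-month Foxp3Cre, 4 of 16 proliferation genes were higher and 5 lower (median 0.32). Initiation factors had 4 of 30 higher and 7 lower (median -0.15). Biogenesis genes had 15 of 49 higher and 7 lower (median 0.17), and regulators 4 of 19 higher and 3 lower (median 0.25). Of all measured genes in this comparison, 33.2% were higher and 31.3% lower (median 0.15).

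Exon length went with the ratios to a different degree in each comparison. It is the merged length of all annotated exons of a gene, which can exceed the length of any single transcript. Across the 77 standard genes, Spearman's rho between exon length and log2 ratio was -0.08 for lean adipose over LN, 0.06 for obese adipose over LN, 0.30 for 10-month Foxp3Cre over LN, 0.19 for obese over lean adipose, -0.09 for the library labelled Med23 KO over 10-month Foxp3Cre and 0.26 for 10-month Foxp3Cre over lean adipose. Across all protein-coding genes it was 0.17, 0.21, 0.16, 0.01, 0.15 and -0.05 in the same order of comparisons. These are correlations across genes of the same libraries, which are not independent replicates, and they are given as a description. In 10-month Foxp3Cre over lean adipose the 39 shorter genes had a median of -0.53 and the 38 longer genes one of -0.08.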

How the data were processed

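RNA of sorted Tregs was sequenced in 5 libraries, 1 per group. TopHat2 2.0.9, Bowtie2 2.0.6 and build mm8 are named per the submitters' processing notes, while the sources used here give no read counter, annotation, strand setting or normalization. The authors deposited 3 tables of 2 libraries each. The authors' expression signal is a scaled read count per gene and library, normalized by them before deposit in a way not stated. The authors' log2 fold change per gene was computed from the 2 libraries of a table. The authors' p-value and q-value per gene were computed for the same 2 libraries and underlie their mark for changed genes, and only the mark is printed. Each deposited value equalled a whole number of equal steps (tolerance 0.01 read), which gave the reads behind the values (4595046 to 9694474 per library). Values under 1 scaled count are listed as 0, so the smallest listed values stand for 6 to 10 reads, and no count model was used. The design foresaw raw counts, and the scaled values were used in their place.

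Each column was rescaled to a sum of 1000000 (CPM). LN, present in 2 tables, was identical in both after rescaling. A gene was measured at 1 CPM or more in either library. Counts of genes use a 2-fold threshold on the log2 scale with a pseudocount of 1 CPM, and printed folds are ratios without it. The intervals in parentheses are 95% Clopper-Pearson counting intervals conditional on the reads of both libraries, which cover counting error only, since the reads carry no molecular identifiers and may repeat molecules. With 1 library per group there is no test. Symbols came from GENCODE M21 and start windows from RefSeq (GRCm38.p6). Named genes were the 4 highest and 4 lowest ratios of each comparison, the 6 highest mean CPM, Rplp0, Rplp1, Rplp2, Rpsa, the paralogs with their parents, genes listed at 0 but at 20 CPM or more elsewhere, and the 2 highest and 2 lowest ratios of each list. Some genes of this rule are not reported here. The genes and lists were chosen with earlier results of these data known. Other scalings, pseudocounts, filters and fold thresholds were tried. Calculations used Python 3.11.15 with numpy 2.4.6, pandas 2.3.3, scipy 1.17.1 and matplotlib 3.10.9, and were tested on simulated data.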

Additional observations from a re-analysis of the deposited data

Results flagged for a closer look

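Of the copies that the symbol rule excludes, because they are not annotated as protein-coding, 2 stood out for reads above the LN level in adipose libraries. Rpl37rt, a copy of Rpl37, had 21.5 CPM in the library labelled Med23 KO, 0 in 10-month Foxp3Cre (below LN), 106 in obese adipose, 124 in lean adipose and 1.34 in LN. Rpl6l, a copy of Rpl6, had 23.1 CPM in obese adipose and 26.6 in lean adipose. It was listed at 0 in the library labelled Med23 KO, in 10-month Foxp3Cre and in LN. Rps4l, at lower levels, had 6.94 CPM in obese adipose and 3.75 in lean adipose and was also at 0 elsewhere. Others did not: Rps3a2 had 27.6, 91.8, 32.5, 46.2 and 118 CPM and Rps3a3 had 36.1, 73.7, 11.1, 20.02 and 124 CPM in the library labelled Med23 KO, 10-month Foxp3Cre, obese adipose, lean adipose and LN, both highest in LN. Of the 50-base words of these transcripts, 38.7% for Rpl37rt and 61.8% for Rpl6l also occur in the parent gene. The part of read assignment in these values was not tested.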

How the results depend on the processing

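No value past 2-fold changed direction in the alternatives run for the main values and named genes. Near 0, Rpl13a and Rpl24 in obese adipose over LN turned to log2 ratios of -0.48 and -0.50 with centring and to -0.02 and -0.04 with the authors' scaling. Rpl23a, not among the genes named for these comparisons, turned with its pseudogenes added from below to above LN in lean and obese adipose. The median of all genes turned to -0.15 for the library labelled Med23 KO over 10-month Foxp3Cre with the authors' scaling, and to -0.03 for 10-month Foxp3Cre over LN with a minimum of 10 CPM. Of the main values, 165 recomputed ones stayed close and 41 moved, and of the single genes 341 stayed close and 63 moved. Centring on the median of all genes gave a median log2 ratio of -1.44 for lean adipose over LN, -1.88 for obese adipose over LN, -1.59 for 10-month Foxp3Cre over LN, -0.37 for obese over lean adipose, 0.40 for the library labelled Med23 KO over 10-month Foxp3Cre and -0.16 for 10-month Foxp3Cre over lean adipose. With the authors' scaling it was -1.30 for lean adipose over LN, -1.45 for obese adipose over LN and 0.25 for the library labelled Med23 KO over 10-month Foxp3Cre, and this scaling was not run between 10-month and 4-month tables, which were normalized separately. With the members left out of the total it was -1.37 for obese adipose and -1.60 for 10-month Foxp3Cre over LN, and with pseudogenes added -1.16 for obese adipose over LN. Genes at least 2-fold higher numbered 0 without paralogs in lean and in obese adipose over LN. For obese adipose over LN they numbered 1 with a pseudocount of 5, 1 with a minimum of 10 CPM and 1 with centring, and for obese over lean adipose 1 with that minimum. For the library labelled Med23 KO over 10-month Foxp3Cre they numbered 3 with centring and 2 with the authors' scaling, and genes at least 2-fold lower numbered 0 with the minimum of 10 CPM. Genes at least 2-fold lower without paralogs numbered 1 for obese over lean adipose and 5 for 10-month Foxp3Cre over lean adipose, where centring also gave 5. A 1.5-fold threshold, chosen after the data were seen, gave 34 higher genes for the library labelled Med23 KO over 10-month Foxp3Cre, 7 lower for obese over lean adipose, and 27 lower and 11 higher for 10-month Foxp3Cre over lean adipose. The share of reads in the library labelled Med23 KO, 10-month Foxp3Cre, obese adipose, lean adipose and LN was 5.08%, 3.59%, 4.21%, 4.73% and 10.07% with pseudogenes added. It was 5.13%, 3.61%, 4.07%, 4.51% and 10.29% without mitochondrial genes, and 5.39%, 3.87%, 4.34%, 4.85% and 10.72% without the 10 genes with the most reads. The causes were not tested. No paired analysis was possible because each group has 1 library, and for the same reason no library could be left out of a group. The smallest listed values stand for 6 to 10 reads.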
